A study of Homo sapiens with 6 samples.

Results

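The genes described here are 51 components and regulators of the DNA replication machinery, measured in HT29-tsp53 cells before, during and after a period of active p53. All 51 were found among the 18701 genes that had probe sets listing a single symbol, and all 51 were bright enough to be tested, among 14025 genes in all. ORC2, ORC3, ORC4 and ORC5 carry the older symbols ORC2L, ORC3L, ORC4L and ORC5L in the array annotation. HT29-tsp53 is the human colorectal adenocarcinoma line HT-29 expressing a murine p53 transgene, which the labels write as V135A. Every culture, controls included, carried this transgene. HT-29 also makes a mutant p53 of its own. The p53 off cultures stayed at 38 °C, where this p53 is inactive. The p53 on cultures spent 16 h at 32 °C, where it is active, and the recovery cultures (p53 on then off in the labels) spent 16 h at 32 °C and a further 6 h at the restrictive temperature. The growth and treatment notes name 37 °C where the sample labels name 38 °C, and 1 field of the recovery samples gives 32 °C for the last 6 h. Each group had 2 arrays, one from experiment 1 and one from experiment 2, and no group without the transgene or with inactive p53 at 32 °C was among the samples, so active p53 and the lower temperature cannot be told apart.

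A human chromosome is copied from many origins. The origin recognition complex marks an origin, and CDC6 and CDT1 load onto it a pair of MCM2-7 rings, a step called licensing. In S phase the kinase CDC7-DBF4, MCM10 and the GINS complex turn the rings into active helicases. DNA polymerase alpha with primase starts each strand, polymerases delta and epsilon extend it on the PCNA clamp loaded by replication factor C, and FEN1, RNase H2 and DNA ligase I join the lagging-strand pieces. Many of these genes are transcribed in late G1 by E2F factors, which the retinoblastoma family holds back. Active p53 induces CDKN1A, the p21 inhibitor of the kinases that release E2F.

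The arrays behaved as labelled. CDKN1A and MDM2, the ubiquitin ligase that degrades p53, were higher on both p53 on arrays than on the other 4, at 8.32 and 7.91 against 4.78 to 4.99 for CDKN1A and at 10.97 and 10.89 against 7.31 to 7.6 for MDM2 (log2 signal). The cold-inducible RNA-binding genes CIRBP and RBM3 also differed between p53 on and p53 off, by 1.10 and 1.06 log2 units. Limma did not call them without the block (adjusted p = 0.0813 and 0.299) and called them once experiment was added as a replicate block (adjusted p = 0.00916 and 0.00694). All 9 measured epithelial markers passed the filter on dim genes, with KRT8 and KRT18 between 11.42 and 12.64 on all arrays. CEACAM5 of that list differed by -0.72 in p53 on and by -1.04 after recovery, both against p53 off, and was called with the block (adjusted p = 0.034 and 0.0476) and not without it (0.262 and 0.757). The leukocyte marker PTPRC and the fibroblast marker DCN lay between 1.39 and 2.38, under the filter at log2 3.62. Of the fibroblast list 5 of 6 and of the leukocyte list 3 of 5 measured markers passed that filter. LYZ, on the leukocyte list and also made by some epithelial cells, reached 11.52. The summed linear signal of the epithelial list was 8457 to 13358 in p53 off, 12688 to 15309 in p53 on and 12913 to 14354 in recovery. For the fibroblast list the sums were 118 to 126, 118 to 134 and 122 to 151, and for the leukocyte list 1915 to 2897, 2257 to 3085 and 2208 to 2801. The part of these lists in the results below was not tested.

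With p53 on, transcripts of the replication machinery were lower at nearly every step, and after 6 h of recovery most were back near the control level. The median replication gene differed by -0.85 log2 units between p53 on and p53 off, by 0.74 between recovery and p53 on, and by -0.07 between recovery and p53 off, where the medians of all genes tested were 0.02, 0.02 and 0.03. In p53 on 48 of the 51 genes lay below control, where 48% of all genes tested did so. PCNA, GMNN and LIG1 did not. Of the 51, 16 lay lower by at least 1 log2 unit, a 2-fold difference. The share of all genes that did so was not counted. After recovery 39 of the 51 lay within 0.3 log2 units of control. The share of all genes tested within that distance was not counted, so the 39 cannot be set against a background. In total RNA from whole cultures, fewer cells making a transcript and less of it per cell cannot be told apart.

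**Figure D1:**
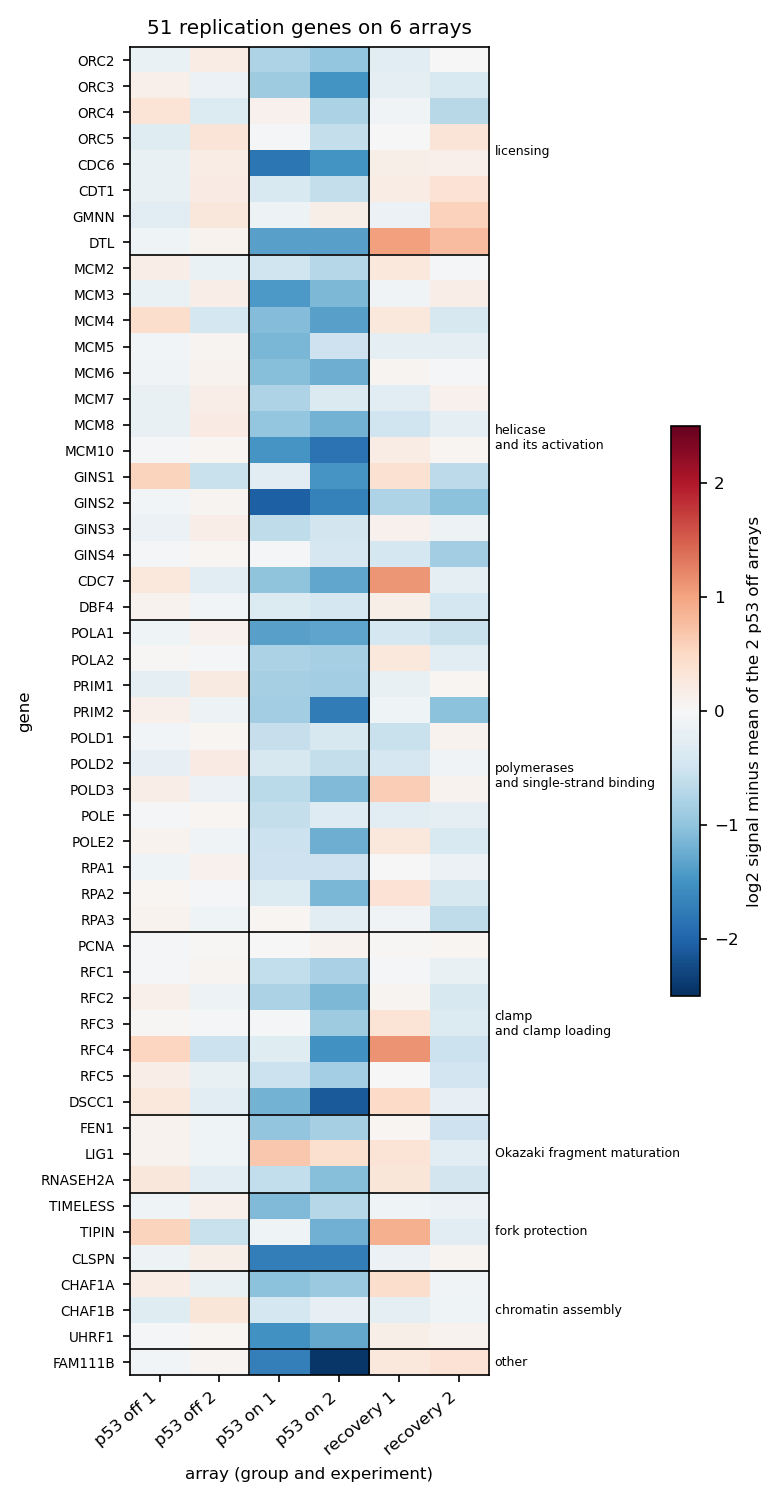
Colour gives the log2 signal of each of the 51 genes (vertical axis, grouped by step) on each of the 6 arrays (horizontal axis) minus the mean of the 2 p53 off arrays of that gene. The 2 p53 on columns are blue for most genes, LIG1 is red there, PCNA is near white on every array, and DTL is the reddest row of recovery experiment 2.

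Groups were compared with limma, an empirical Bayes linear model fitted to every gene past the filter. Calls required a Benjamini-Hochberg adjusted p under 0.05, and a value after ± is the standard error that limma gave, with n = 2 in each group. Without the block, 9 of the 51 genes fell in p53 on, against 0.585% of all genes tested, and 0 rose, against 0.898%. At an unadjusted p under 0.05, 32 lay lower and 0 higher, where 8.1% and 7.33% of all genes did so. With experiment as a replicate block, 33 fell, against 6.28% of all genes, and 0 rose, against 5.18%. These counts rest on all 6 arrays. Without the block, most or all of the 9 calls were lost whichever array was left out. Most or all calls of lower genes over all genes tested were lost in those fits too. The median was between -0.68 and -0.92 in the same fits. In 39 of the 51 genes both p53 on arrays lay below both p53 off arrays, where 20.6% of all genes did so. In 46 of them the sign was negative in both experiments, where 31.6% of all genes had that pattern.

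Most probe sets went the same way as the gene values, which are their medians. Of the 848 probe sets behind the 51 genes, 760 had a lower mean in p53 on than in p53 off, and 729 had a higher mean in recovery than in p53 on. In 17 genes every probe set was lower in p53 on, among them all 23 of MCM10, all 25 of CLSPN and all 37 of POLA1. Probe sets of a gene are read on the same array from the same RNA and are not replicates. The matching shares over all probe sets and all genes were not counted.

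Promoter sequences, which the choice of genes did not use, were searched for short words. Many of these genes are known to be transcribed by E2F factors, so their share of E2F words is not independent of that choice. The sequences come from RefSeq (GRCh38.p14) and cover 250 bases before to 50 after an annotated start. The table held 54 such windows for 43 of the 51 genes. The search, on both strands, was for the E2F words TTTCCCGC, TTTCGCGC, TTTGCCGC and TTTGGCGC, the CHR words TTTGAA and TTCGAA, and CCAAT, the core of the NF-Y box. An E2F word was present in 25 of the 54 windows (46.3%), against 3.32% of all 35093 windows in the table. CCAAT was present in 30 (55.6%), against 34.6%, and a CHR word in 2 (3.7%), against 16.4%. In the 44 windows of the other replication genes described last, the shares were 18.2% for E2F words, 52.3% for CCAAT and 11.4% for CHR words. Windows of a gene can overlap each other, and words on opposite strands can overlap too, as in MCM6 and TIPIN. Of the 33 E2F words found, 26 began between 100 bases before and 50 after the start. Base composition was not taken into account in these shares. A match is a description of letters and shows no binding.

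Below are 200 bases around a start, 150 before and 50 after, for 6 genes. CDC6, DTL, CLSPN and GINS2 fell in p53 on and have an E2F word near the start. MCM10 fell and has none of these E2F words. PCNA was level across the groups and has an E2F word in the window printed. Another PCNA window (chr20:5119909-5120108), not printed, has CCAAT and none of these E2F words. Capitals mark the E2F words and CCAAT, on either strand, so that CCAAT on the other strand reads ATTGG and TTTCCCGC reads GCGGGAAA.
CDC6, chr17:40287729-40287928 (+ strand): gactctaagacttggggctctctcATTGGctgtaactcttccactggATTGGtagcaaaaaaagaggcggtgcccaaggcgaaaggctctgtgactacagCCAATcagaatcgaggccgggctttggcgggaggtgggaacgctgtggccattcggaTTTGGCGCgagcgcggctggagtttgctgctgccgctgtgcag
DTL, chr1:212035598-212035797 (+ strand): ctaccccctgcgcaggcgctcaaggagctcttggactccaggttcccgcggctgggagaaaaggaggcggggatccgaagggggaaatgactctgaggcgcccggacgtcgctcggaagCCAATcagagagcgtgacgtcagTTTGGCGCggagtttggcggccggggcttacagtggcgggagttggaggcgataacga
CLSPN, chr1:35769929-35770128 (- strand): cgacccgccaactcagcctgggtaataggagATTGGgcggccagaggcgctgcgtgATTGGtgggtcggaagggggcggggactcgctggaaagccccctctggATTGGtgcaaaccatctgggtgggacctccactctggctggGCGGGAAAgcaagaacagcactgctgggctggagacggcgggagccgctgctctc
GINS2, chr16:85688905-85689104 (- strand): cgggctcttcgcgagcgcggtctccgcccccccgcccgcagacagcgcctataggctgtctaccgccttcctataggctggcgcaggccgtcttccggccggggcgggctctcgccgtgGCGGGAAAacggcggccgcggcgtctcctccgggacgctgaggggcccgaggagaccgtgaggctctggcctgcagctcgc
MCM10, chr10:13161408-13161607 (+ strand): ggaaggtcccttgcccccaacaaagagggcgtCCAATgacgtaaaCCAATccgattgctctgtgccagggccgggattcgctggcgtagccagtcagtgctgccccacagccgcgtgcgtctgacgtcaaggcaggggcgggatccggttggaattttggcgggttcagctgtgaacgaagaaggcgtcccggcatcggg
PCNA, chr20:5126573-5126772 (- strand): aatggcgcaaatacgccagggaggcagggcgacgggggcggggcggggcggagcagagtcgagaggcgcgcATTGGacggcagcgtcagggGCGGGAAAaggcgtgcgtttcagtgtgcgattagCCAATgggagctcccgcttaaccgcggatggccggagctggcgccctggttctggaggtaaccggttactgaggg

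Genes with and without an E2F word had close medians. A gene counted as having a word if any of its windows held it. CDC7, GMNN, MCM7, PCNA, TIPIN and UHRF1 also had a window without an E2F word. The 24 genes with an E2F word had a median difference of -0.88 log2 units in p53 on (range -1.86 to 0.55), and the 19 genes without one had -0.83 (range -1.67 to -0.32). Of the genes that fell without the block, 7 had an E2F word and MCM10 did not. With the block 16 of the 24 and 12 of the 19 fell. The 26 genes with CCAAT had a median of -0.90 and the 17 without it -0.54. The 8 genes in the table that fell without the block were among those with CCAAT, as was PCNA. The only CCAAT of GINS2 began at -158, upstream of the bases printed above. With the block 20 of the 26 with CCAAT and 8 of the 17 without it fell. FAM111B is not in the promoter table. Only the E2F words listed above were counted. A near form, such as TTTGGCGG in the MCM10 window printed above, counted as no word. These medians and counts are descriptions with no test.

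**Figure D2:**
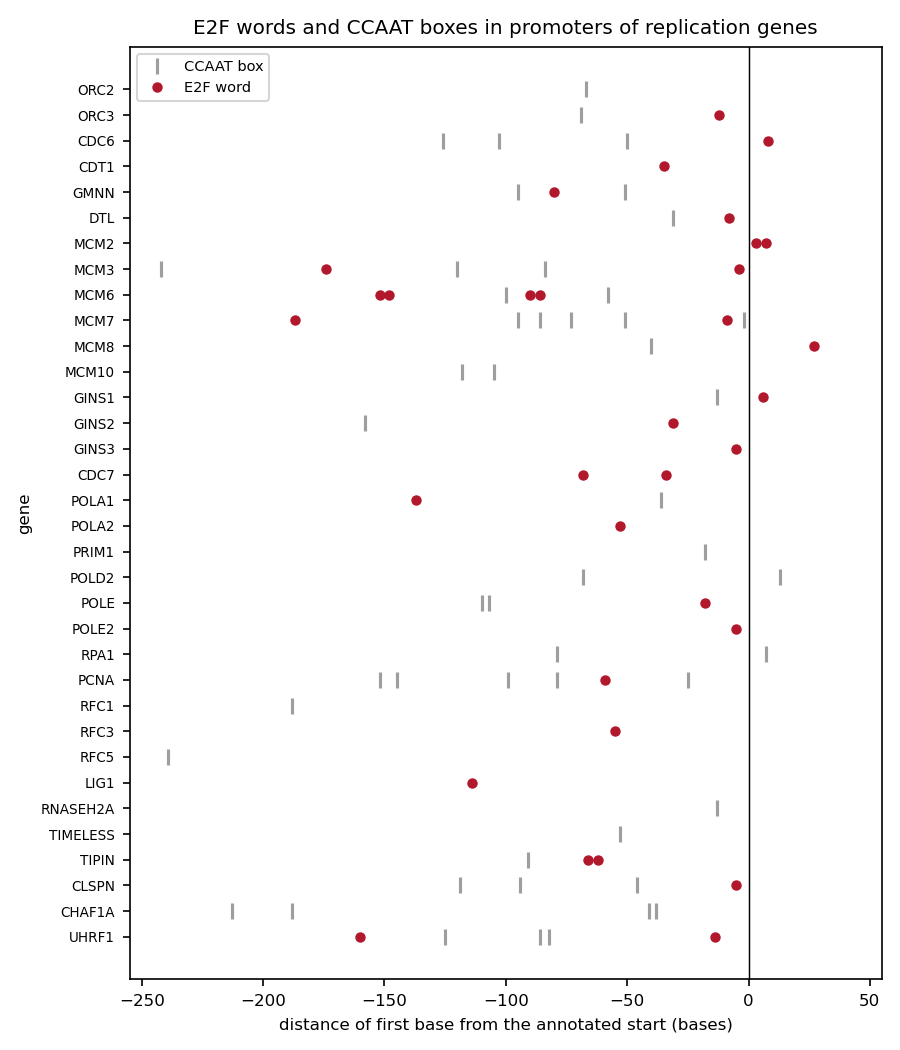
Each point is an E2F word and each grey tick a CCAAT box, placed by the distance of its first base from the annotated start (horizontal axis, bases) for each gene that has either (vertical axis). Most E2F words, 26 of 33, lie between -100 and 50, and the farthest upstream begins at -187.

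Licensing genes had unequal differences, and whether they differed from each other was not tested. CDC6, the ATPase that loads the MCM rings with CDT1, stood at log2 signals of 9.2 and 9.57 in p53 off, 7.58 and 7.9 in p53 on, and 9.53 and 9.52 in recovery. Both p53 on arrays were below all other arrays, and recovery was within the range of control. CDC6 fell 3.13-fold (-1.65 ± 0.23, adjusted p = 0.0288) and rose 3.45-fold in recovery (1.79 ± 0.23, adjusted p = 0.0351). DTL encodes the receptor of the ubiquitin ligase that destroys CDT1 once replication starts. It stood at 7.57 and 7.76, then 6.32 and 6.32, then 8.7 and 8.44, so both recovery arrays were also above both controls. DTL fell 2.54-fold (-1.35 ± 0.20, adjusted p = 0.0395) and rose 4.76-fold (2.25 ± 0.20, adjusted p = 0.016).

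GMNN, geminin, which binds CDT1 and blocks relicensing, stood at 6.48 and 7.05, then 6.65 and 6.92, then 6.62 and 7.34. Its groups overlapped in every comparison, and the 95% interval of its p53 on minus p53 off difference of 0.02 ran from -0.73 to 0.76. CDT1 itself differed by -0.50 ± 0.22 (adjusted p = 0.356, or 0.141 with the block), with both p53 on arrays below both controls. The differences of the origin recognition subunits were unequal too, and were not compared by a test. ORC3 and ORC2 differed by -1.18 ± 0.26 and -0.88 ± 0.23, calls made with the block (adjusted p = 0.00623 and 0.0229) and not without it (0.0895 and 0.127). ORC4 and ORC5 differed by -0.35 ± 0.39 and -0.32 ± 0.31, and ORC5 had opposite signs in experiments 1 and 2 (0.28 and -0.91).

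Helicase genes lay lower in p53 on in all 14 cases, with a median of -0.98 log2 units. GINS2, a subunit of the GINS complex, stood at 7.44 and 7.58 in p53 off, 5.46 and 5.83 in p53 on, and 6.74 and 6.48 in recovery. The 3 groups did not overlap, and recovery lay between the others. GINS2 fell 3.64-fold (-1.86 ± 0.22, adjusted p = 0.02). MCM10, which activates the helicase, stood at 7.8 and 7.88, then 6.36 and 5.99, then 8.03 and 7.89. It fell 3.17-fold (-1.67 ± 0.21, adjusted p = 0.0245) and rose 3.45-fold (1.79 ± 0.21, adjusted p = 0.0277). MCM6, of the ring, stood at 8.4 and 8.57, then 7.43 and 7.27, then 8.56 and 8.47, and fell 2.20-fold (-1.14 ± 0.20, adjusted p = 0.0494).

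The 6 ring subunits had unequal differences. MCM3 differed by -1.27 ± 0.23 and MCM4 by -1.22 ± 0.35, MCM5 by -0.83 ± 0.25, MCM2 by -0.61 ± 0.23 and MCM7 by -0.57 ± 0.26. The block called MCM3, MCM4, MCM5 and MCM2 (adjusted p = 0.00305, 0.00696, 0.0325 and 0.0493) and not MCM7 (0.0602). None of these 5 was called without it (adjusted p from 0.055 for MCM3 to 0.353 for MCM7). MCM8, a ring relative that works with MCM9 in recombination, differed by -1.08 ± 0.23 (adjusted p = 0.0831, or 0.0116 with the block). Whether the ring subunits differed from each other was not tested.

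The other GINS genes were not called without the block. GINS1 differed by -0.88 ± 0.55, with a 95% interval from -2.18 to 0.41, and was called with the block (adjusted p = 0.0136) and not without it (0.519). GINS3 differed by -0.54 ± 0.22 (adjusted p = 0.295, or 0.108 with the block). GINS4 stood at 5.44 and 5.52, then 5.44 and 5.06, then 5.04 and 4.62, so its lowest arrays were those of recovery. GINS4 differed by -0.23 ± 0.24 in p53 on (adjusted p = 0.743) and by -0.42 ± 0.24 between recovery and p53 on (adjusted p = 0.57). CDC7, the kinase that fires origins, differed by -1.15 ± 0.43 (adjusted p = 0.265, or 0.0215 with the block), and its activator DBF4 by -0.40 ± 0.25 (adjusted p = 0.517, or 0.218 with the block).

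Polymerase and primase genes were lower with a median of -0.78 over 12 genes, counting the single-strand binding genes with them. POLA1, the catalytic subunit of polymerase alpha, stood at 7.09 and 7.31 in p53 off, 5.85 and 5.88 in p53 on, and 6.77 and 6.65 in recovery. The groups did not overlap, and recovery stayed below control on both arrays. POLA1 fell 2.53-fold (-1.34 ± 0.20, adjusted p = 0.0364) and was the only gene of this step called without the block. With it, PRIM2 (-1.31 ± 0.40 in the fit without the block), POLD3 (-0.90 ± 0.27), POLE2 (-0.88 ± 0.32), PRIM1 (-0.85 ± 0.23) and POLA2 (-0.81 ± 0.23) fell too, with adjusted p from 0.00681 for PRIM2 to 0.0301 for POLA2. PRIM1 and PRIM2 form the primase, and POLA2, POLD3 and POLE2 are accessory subunits. The catalytic subunits of polymerases delta and epsilon had smaller differences, -0.48 ± 0.26 for POLD1 and -0.47 ± 0.20 for POLE, as had the accessory subunit POLD2 (-0.50 ± 0.24). These 3 were not called in either fit (adjusted p from 0.326 to 0.451, and from 0.118 to 0.151 with the block).

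Replication protein A coats single-stranded DNA. Its large subunit RPA1 differed by -0.51 ± 0.20, RPA2 by -0.75 ± 0.35 and RPA3 by -0.12 ± 0.26, with none called in either fit. RPA3 stood at 5.13 and 4.94, then 5.09 and 4.75, then 4.96 and 4.4, and its groups overlapped in every comparison. RPA2 had an adjusted p of 0.376, or 0.0571 with the block.

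The clamp itself was level while most of its loaders lay lower. PCNA stood at 8.04 and 8.08 in p53 off, 8.07 and 8.15 in p53 on, and 8.09 and 8.1 in recovery. Its p53 on minus p53 off difference was 0.05 ± 0.19 (adjusted p = 0.946), with a 95% interval from -0.39 to 0.49, which does not reach the -0.85 of the median replication gene. Of its 12 probe sets 5 were lower in p53 on. Processed copies of PCNA elsewhere in the genome could share signal with its probe sets, which was not tested. DSCC1, a subunit of an alternative clamp loader, stood at 7.52 and 6.99, then 6.07 and 5.16, then 7.72 and 7.05. It differed by -1.63 ± 0.38 in p53 on and by 1.77 ± 0.38 in recovery, calls made with the block (adjusted p = 0.00148 and 0.00197) and not without it (0.104 and 0.124).

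Replication factor C has 1 large and 4 small subunits. The large subunit RFC1 differed by -0.72 ± 0.20, RFC2 by -0.96 ± 0.25, RFC4 by -0.91 ± 0.64 and RFC5 by -0.69 ± 0.26, and the block called these 4 (adjusted p from 0.00999 for RFC2 to 0.0336 for RFC1 and RFC5). RFC3 differed by -0.45 ± 0.35 (adjusted p = 0.22 with the block), and no subunit was called without the block (adjusted p from 0.128 to 0.621). RFC4, chosen for display after its values were seen, stood at 7.11 and 6.05 in p53 off, 6.27 and 5.07 in p53 on, and 7.71 and 6.05 in recovery, with experiment 1 the higher in each group by 1.06 to 1.66 log2 units. Within the experiments the p53 on minus p53 off differences were -0.84 and -0.99.

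Other genes of the list also had offsets between the experiments. The share of all genes with such an offset was not counted, and arrays of the same experiment deviated together across all genes tested. In 12 of the 51 the mean offset over the 3 groups exceeded 0.5 log2 units, and 8 of those 12 fell with the block in p53 on. TIPIN stood at 6.78 and 5.67 in p53 off, 6.12 and 5.01 in p53 on, and 7.1 and 5.93 in recovery. Its groups overlapped, yet the difference was -0.66 in each experiment. TIPIN fell with the block (adjusted p = 0.0379) and not without it (0.664).

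**Figure D3:**
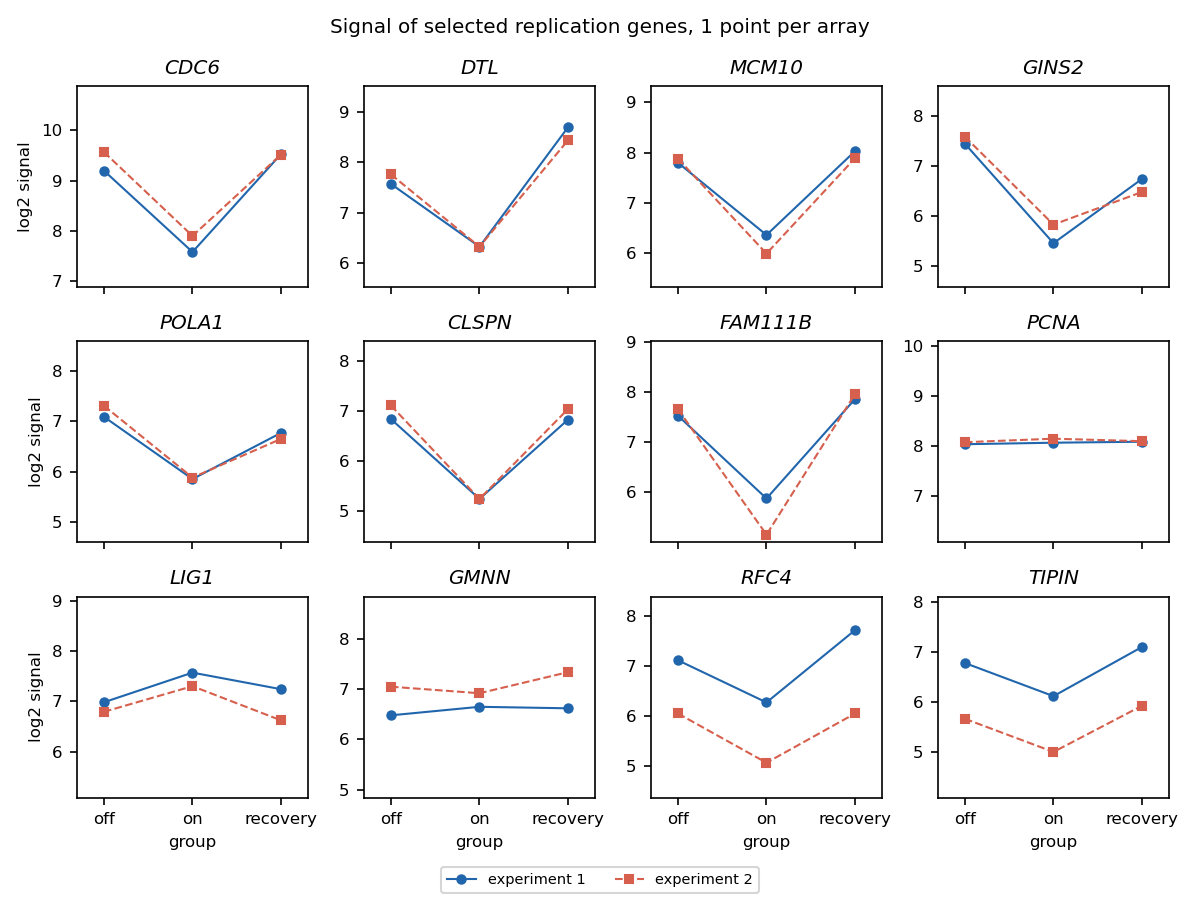
Log2 signal (vertical axes, each spanning 4 units) of 12 genes in the 3 groups (horizontal axes), with 1 point per array and a line per experiment. CDC6, DTL, MCM10, GINS2, POLA1, CLSPN and FAM111B dip in p53 on in both experiments, PCNA is level near 8.1, and LIG1 peaks in p53 on. In RFC4 and TIPIN experiment 1 lies above experiment 2, with near parallel lines in TIPIN and the widest gap of RFC4 in recovery.

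Lagging-strand maturation held the gene with the largest difference upwards. LIG1, the ligase that seals Okazaki fragments, stood at 6.98 and 6.79 in p53 off, 7.57 and 7.3 in p53 on, and 7.24 and 6.62 in recovery. Both p53 on arrays were above all others. LIG1 differed by 0.55 ± 0.26 and was called neither without the block (adjusted p = 0.392) nor with it (0.0918), and 4 of its 31 probe sets were lower in p53 on. FEN1, the nuclease that trims the flap before LIG1 acts, stood at 7.5 and 7.31, then 6.42 and 6.58, then 7.45 and 6.89. It differed by -0.91 ± 0.25, a call made with the block (adjusted p = 0.0259) and not without it (0.145). Of its 3 probe sets 2 were lower in p53 on. RNASEH2A, the catalytic subunit of RNase H2, differed by -0.83 ± 0.34, likewise called with the block (adjusted p = 0.0191) and not without it (0.303).

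Fork protection genes all fell with the block. CLSPN, claspin, which links the fork to the checkpoint kinase CHK1, stood at 6.84 and 7.11 in p53 off, 5.25 and 5.25 in p53 on, and 6.83 and 7.04 in recovery. The p53 on arrays were the lowest, and recovery overlapped control. CLSPN fell 3.30-fold (-1.72 ± 0.21, adjusted p = 0.02) and rose 3.21-fold (1.68 ± 0.21, adjusted p = 0.0309). TIMELESS, the partner of TIPIN, differed by -0.92 ± 0.22 (adjusted p = 0.115, or 0.0165 with the block).

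Chromatin genes lay lower in all 3 cases. CHAF1A and CHAF1B are subunits of CAF-1, which places new histones behind the fork. CHAF1A differed by -0.98 ± 0.26 (adjusted p = 0.131, or 0.0181 with the block). CHAF1B stood at 6.88 and 7.48, then 6.74 and 6.97, then 6.95 and 7.07, and differed by -0.33 ± 0.25 (adjusted p = 0.63, or 0.31 with the block). Their 95% intervals, -1.58 to -0.37 and -0.93 to 0.28, overlapped, and the difference between them was not tested. UHRF1, which brings the maintenance methyltransferase DNMT1 to new DNA, stood at 7.49 and 7.59 in p53 off, 6.02 and 6.26 in p53 on, and 7.69 and 7.62 in recovery. UHRF1 fell 2.65-fold (-1.40 ± 0.20, adjusted p = 0.0305) and rose 2.87-fold (1.52 ± 0.20, adjusted p = 0.0371).

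FAM111B, a trypsin-like protease gene, had the most negative difference of the 51. It stood at 7.53 and 7.66 in p53 off, 5.88 and 5.16 in p53 on, and 7.86 and 7.96 in recovery, on 5 probe sets. It fell 4.21-fold (-2.07 ± 0.27, adjusted p = 0.0249) and rose 5.25-fold (2.39 ± 0.27, adjusted p = 0.0269), and both recovery arrays were above both controls.

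In the second comparison, recovery against p53 on, which shares the p53 on arrays with the first, 6 of the 51 genes rose without the block, against 0.143% of all genes tested. They were CDC6, DTL, MCM10, CLSPN, UHRF1 and FAM111B. At an unadjusted p under 0.05, 28 lay higher and 0 lower, where 6.66% and 5.6% of all genes did so. With the block 26 rose, against 3.84%, and 0 fell in either fit, against 0.285% of all genes without the block and 3.39% with it. In every fit without the block that left out 1 array the 6 calls were lost, and the median lay between 0.56 and 0.91. The matching loss over all genes is not given here. Both recovery arrays were above both p53 on arrays in 35 genes, where 21.3% of all genes were. LIG1 and GINS4 lay below p53 on without overlap, LIG1 with a difference of -0.51 ± 0.26 and GINS4 as given above, and 18.3% of all genes had that pattern. Of the genes that fell in p53 on without the block, GINS2 (0.96 ± 0.22, adjusted p = 0.144), POLA1 (0.85 ± 0.20, adjusted p = 0.144) and MCM6 (1.17 ± 0.20, adjusted p = 0.0784) were called as risen with the block (adjusted p = 0.0254, 0.0266 and 0.00874) and not without it.

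By step, the medians of recovery minus p53 on were 0.74 for licensing, 0.74 for helicase, 0.73 for polymerase and single-strand binding, 0.60 for clamp and loading, 0.67 for maturation, 0.95 for fork protection and 1.14 for chromatin genes. In the same order the medians of p53 on minus p53 off were -0.69, -0.98, -0.78, -0.72, -0.83, -0.92 and -0.98. Steps hold 3 to 14 genes and their medians were not compared by a test.

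The third comparison asks whether levels after recovery differed from those of cells never shifted, and it shares arrays with both others. In limma 0 of the 51 genes were called, with or without the block, against 0.0285% of all genes higher and 0% lower without it and 0.207% and 0.392% with it. At an unadjusted p under 0.05, 3 of the 51 (GINS2, GINS4 and POLA1) lay lower and 1 (DTL) higher. Of all genes, 2.44% lay lower and 2.88% higher at that p, so a few such genes among 51 are near the background. GINS2 differed from control by -0.90 ± 0.22 log2 units (adjusted p = 0.757, or 0.104 with the block) and DTL by 0.90 ± 0.20 (adjusted p = 0.652, or 0.0801 with the block). The 95% intervals without adjustment ran from -1.43 to -0.38 for GINS2 and from 0.42 to 1.38 for DTL. POLA1 differed by -0.49 ± 0.20 and GINS4 by -0.65 ± 0.24. Recovery arrays lay below control without overlap in 7 genes, ORC3, MCM5, MCM8, GINS2, GINS4, POLA1 and POLE, and above it in 5, DTL, MCM10, PCNA, UHRF1 and FAM111B. Among all genes these shares were 14.5% and 20.4%. The median of the 51 genes was 0.06 in experiment 1 and -0.18 in experiment 2.

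**Figure D4:**
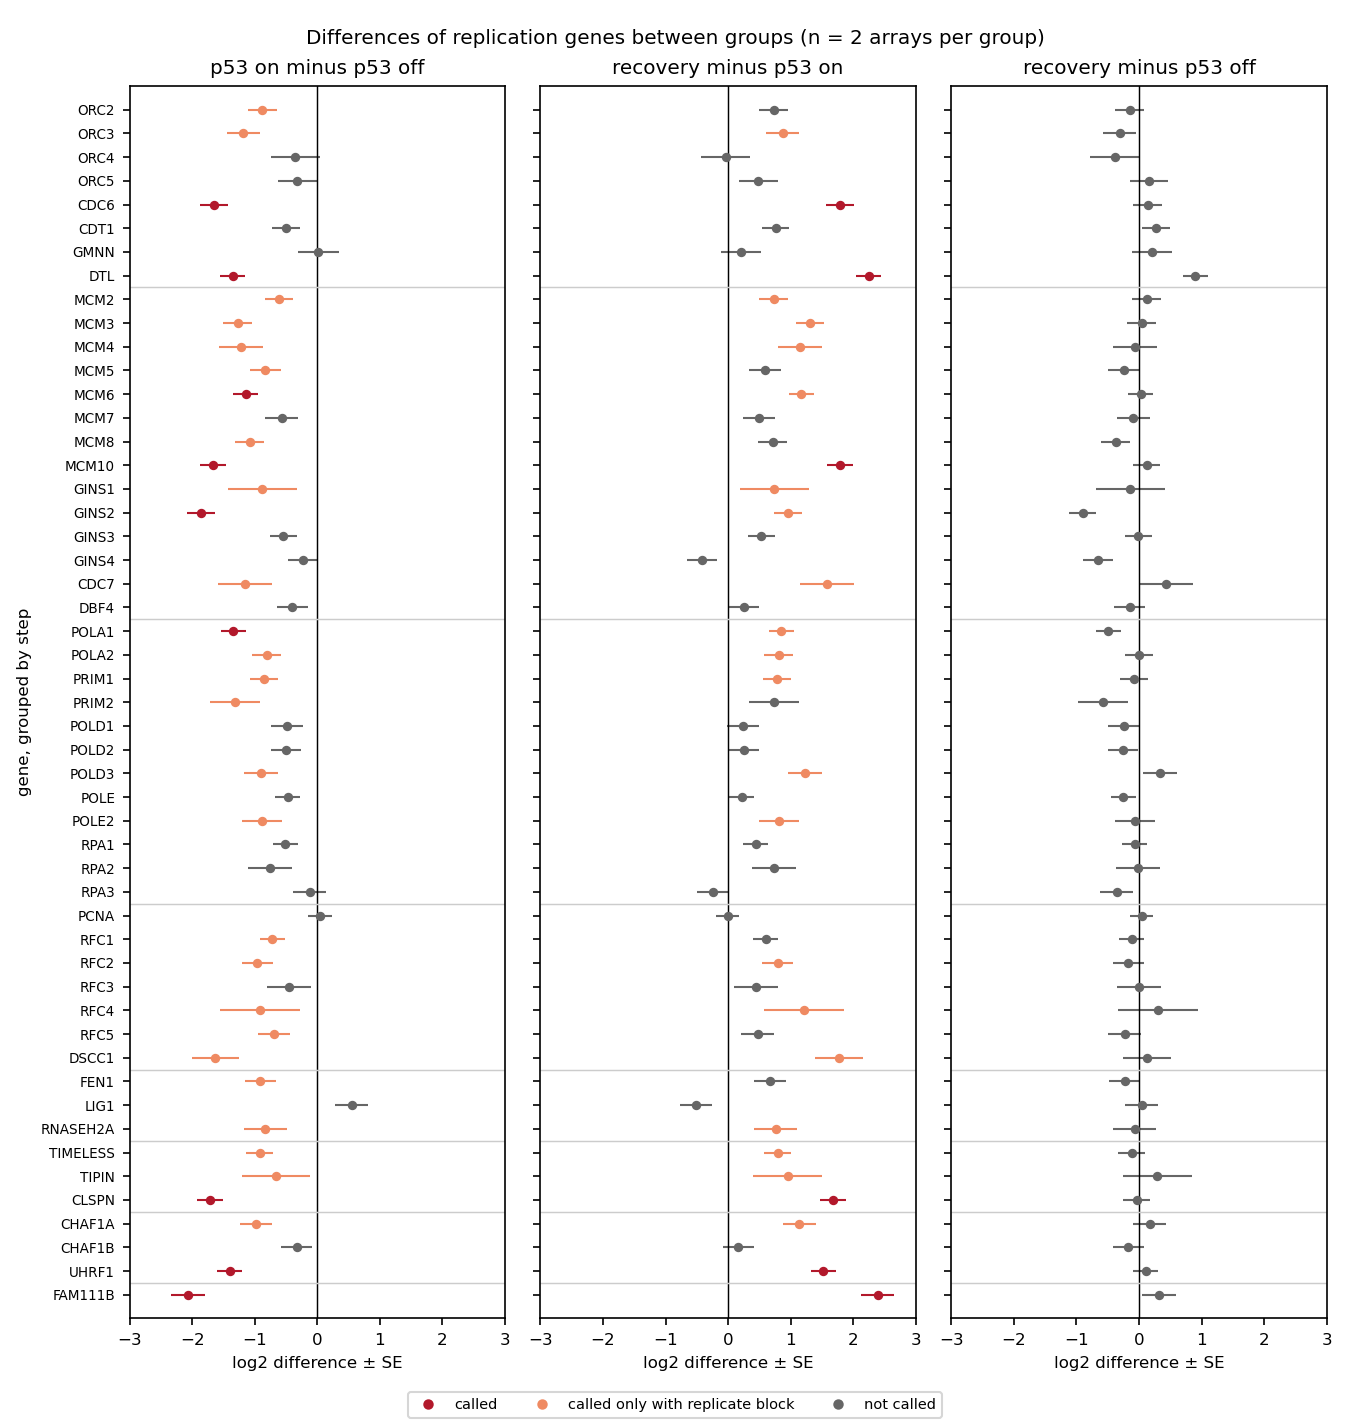
Log2 differences, with bars for the standard error in limma (horizontal axes, n = 2 in each group), for the 51 genes (vertical axis, grouped by step) in the 3 comparisons. Dark red points were called without the block, orange points only with it and grey points in neither fit. The left panel has 9 dark red points, the middle panel 6 and the right panel 0.

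A further 40 replication genes outside the 51 were listed, and 39 were measured (DONSON was not matched). In p53 on 3 of the 39 fell without the block and 0 rose, where 0.585% of all genes fell and 0.898% rose. With the block 15 fell and 0 rose, against 6.28% and 5.18%. At an unadjusted p under 0.05, 19 lay lower and 0 higher, against 8.1% and 7.33%. TICRR, a scaffold of helicase activation, stood at 7.84 and 8.22, then 6.34 and 6.3, then 7.64 and 7.39, and fell 3.27-fold (-1.71 ± 0.22, adjusted p = 0.0245). MMS22L, which acts at stalled forks, stood at 6.66 and 6.89, then 5.11 and 5.14, then 6.83 and 6.39, and fell 3.14-fold (-1.65 ± 0.23, adjusted p = 0.0288). CDC25A, a phosphatase that activates cyclin-dependent kinases, stood at 6.62 and 6.59, then 5.52 and 5.12, then 6.77 and 6.62, and fell 2.43-fold (-1.28 ± 0.22, adjusted p = 0.0494). The median of the 39 was -0.56.

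In recovery against p53 on, 0 of the 39 were called without the block in limma (19 higher and 0 lower at an unadjusted p under 0.05, against 6.66% and 5.6% of all genes). With the block 13 rose, against 3.84%, and the median was 0.56. MMS22L had the smallest p of these (1.49 ± 0.23, adjusted p = 0.0619, or 0.00617 with the block). Against control, 0 of the 39 were called without the block after recovery (2 higher and 1 lower at an unadjusted p under 0.05, near the 2.88% and 2.44% of all genes), and the block called TOP2A lower. TOP2A, the topoisomerase that untangles sister chromosomes, stood at 9.94 and 9.56, then 9.07 and 8.86, then 8.79 and 8.53, so both recovery arrays were below both p53 on arrays. Its recovery minus p53 off difference was -1.09 ± 0.23 (adjusted p = 0.603, or 0.0413 with the block).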

How the data were processed

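Total RNA (100 ng per array) was labelled with a sense-strand whole-transcript kit and hybridised to Affymetrix Human Gene 1.0 ST arrays, per the labels' protocols. Each deposited value is the signal of 1 exon-level probe set. A log2 scale was inferred from the span of -0.85 to 13.14, and how the authors corrected and normalized the signals was not given in the sources used here. Array medians lay between 5.24 and 5.31, so no scaling was added. Precision is limited by the number of arrays.

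Probe sets listing a single symbol were combined into genes by their median. Genes in the lowest 25% by mean signal (log2 3.62 or less) were left out. Limma 3.58.1 in R 4.3.3 fitted the 3 groups as 1 factor over all 6 arrays. P-values were adjusted by Benjamini-Hochberg over all 14025 genes, and the fit was tested on simulated data. With 2 arrays against 2, an exact permutation test cannot go below p = 0.333. The labels do not say whether the cultures were independent, so p-values measure the spread between these samples.

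The labels give each sample an experiment number, which was taken to pair the groups. Arrays with the same number deviated together across genes, which are not independent replicates (correlations of 0.496, 0.551 and 0.63). Values with that number as a replicate block stand beside a result where they change the call or a count.

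The members and lists were chosen with earlier results of these data known. Values on every array are given for members called in any comparison without the block and, per step, for those with the lowest and highest p53 on minus p53 off difference. Other replication genes are named if called, or if their p was the smallest. Alternatives tried were the block, other dim filters, the mean or the brighter probe sets of a gene, quantile normalization, a trend in the prior variance, a fit of only the groups compared, and leaving out each array. Signals were not compared between genes.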

Additional observations from a re-analysis of the deposited data

How the results depend on the processing

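The medians of the 51 replication genes moved by less than the spread between replicates under the alternatives tried, except that the recovery minus p53 off median changed sign without recovery array 2. Leaving out each array in turn gave -0.92 to -0.68 for p53 on minus p53 off, 0.56 to 0.91 for recovery minus p53 on and -0.21 to 0.05 for recovery minus p53 off. Counts of called genes moved more. With the replicate block, 33 genes fell in p53 on in place of 9, and 26 rose in recovery in place of 6. With the mean of a gene's probe sets 14 fell in p53 on, and with only the groups compared 1 fell in p53 on and 0 rose in recovery. Calls of lower genes in p53 on moved the same way over all genes tested. They increased with the mean of probe sets and were mostly lost with only the groups compared. All calls of higher genes in recovery were lost with only the groups compared, so these shifts were not particular to the replication genes. Without each array in turn, most or all calls of lower genes in p53 on were lost, among the 51 and over all genes. The calls of the 51 in recovery were lost as well. Over all genes the counts were 881 lower with the block in place of 82, and 539 higher in recovery in place of 20. Single calls lay near the threshold. Without the dim filter DTL and MCM6 were not called in p53 on (adjusted p = 0.0502 and 0.0651) nor UHRF1 in recovery (0.0509), and with quantile normalization MCM6 was not called in p53 on (0.0518) nor CDC6 in recovery (0.0515). Fits without 1 array leave a group with a single array, which is assumed to vary like the others, and they unbalance the experiments.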
